A study of Mus musculus with 4 samples.

Results

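Fatty acid desaturases put double bonds into fatty acyl chains and elongases lengthen the chains, and 10 mouse genes of the 2 families were examined in skin stem cells with and without the microRNA miR-205: Scd1, Scd2, Scd3, Fads1, Fads2, Fads3, Elovl1, Elovl5, Elovl6 and Elovl7. Every probe set whose platform annotation named exactly 1 of these genes was taken, which gave 30 of the 45101 probe sets on the array, with 2 to 6 per gene. The genes were picked with the KO against WT difference of 1 Scd2 probe set, and its absence from the other Scd2 probe sets, already in view. Their KO minus WT values and the agreement between probe sets are therefore given as a description and not as tests.

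Messenger RNA had been measured on 4 one-colour Affymetrix mouse arrays. The cells were miR-205 KO hair follicle stem cells (HFSCs, which renew the follicle), on 2 arrays called KO 1 and KO 2, and WT HFSCs on 2 arrays called WT 1 and WT 2. All were sorted by flow cytometry from skin of C57BL/6 mice at postnatal day 4. The titles call the 2 samples of each group biological replicates 1 and 2. The labels do not describe the deleted allele or say whether a sample was 1 animal or a pool. SDs and p-values therefore measure only the spread between 2 such samples, whose source animals are not given. A treatment text shared by all 4 samples describes a doxycycline-inducible miR-203 system that fits neither group name.

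The enzymes work on the endoplasmic reticulum membrane with acyl-CoA substrates. The Scd enzymes make monounsaturated from saturated fatty acids, Fads1 and Fads2 make polyunsaturated ones from dietary precursors, and the Elovl enzymes carry out the first, rate-limiting step of chain elongation, each with its own preferred chain length. In skin their products fill sebum, membranes and the ceramides of the water barrier, and mice that lack Scd1 have shrunken sebaceous glands and sparse hair.

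The microRNA removed in the KO cells is shown with its seed (bases 2 to 8) in capitals, since the seed is the stretch that pairs with target messages. The sequences come from RefSeq, build GRCm38.p6, minus strand, where the 5p arm lies at chr1:193507503-193507524 and the 3p arm at chr1:193507467-193507488. The level of miR-205 itself was not analysed here, so it does not check the labels.
mmu-miR-205-5p: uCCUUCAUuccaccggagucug
mmu-miR-205-3p: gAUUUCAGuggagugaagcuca

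The arrays separated in ways that touch every comparison below. Xist, the RNA of the inactive X chromosome, was at 5.26 and 5.45 on the KO arrays against 13.28 and 13.19 on the WT arrays, and the Y-linked Eif2s3y was at 9.59 and 9.57 against 3.05 and 2.86. Sex-linked RNA and the labelled genotype therefore cannot be told apart in these arrays. The arrays numbered 1 and those numbered 2 also differed in a control for the start of 18S ribosomal RNA, at 11.51 and 9.46 in KO and 11.59 and 9.40 in WT cells. Values are log2 and were deposited after RMA, with array medians of 5.85 to 5.87. All 12 markers of HFSCs and basal keratinocytes had a probe set above the median level of the array, with 7 higher and 4 lower in KO cells. Krt14 was at 13.65 and 13.73 in KO and 13.54 and 13.57 in WT cells, and Krt15, a bulge keratin, was at 13.83 and 14.05 in KO and 13.62 and 13.78 in WT cells. Cd34, a surface marker of bulge stem cells, was at 6.87 and 6.69 in KO cells, against 8.32 and 6.20 in WT cells, highest on WT 1. Dermal fibroblast markers differed between arrays of the same group. The mean of 14 genes was 9.76 and 9.02 on KO 1 and KO 2, against 10.77 on WT 1 and 8.78 on WT 2. WT 1 was thus the highest array and KO 1 the next. In sorted bulk cells, fewer cells of a type and less RNA per cell cannot be told apart.

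No probe set of the array passed an adjusted p of 0.05 in limma (0 of 45037, or 0%), and so none of the 30 did. At an unadjusted p under 0.05 the count was 1 of the 30, against 932 probe sets or 2.07% of the array. The contrast was used to choose the genes, so nothing is read from that count. The median difference of the 30 was 0.03 on the log2 scale, against 0.00 over the array, and 18 were higher and 12 lower in KO cells. Only 1 of the 30 differed at least 1.5-fold, against 0.497% of the array, and 18 lay within 0.1 of no difference. That count of 1 became 4 without KO 2, when the others were both main probe sets of Elovl6 and 1 of Fads2.

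The stearoyl-CoA desaturases, which convert stearate and palmitate to oleate and palmitoleate, held the one large difference, in Scd2. Scd2 is the form prominent in brain and in the skin and liver of newborn mice. Its probe set 1415824_at was at 7.26 and 7.03 on KO 1 and KO 2, against 4.78 and 4.28 on WT 1 and WT 2. The groups were far apart, the lower KO array lying 2.25 above the higher WT array. KO cells averaged 7.15 ± 0.16 and WT cells 4.53 ± 0.35 (SD, n = 2 each), a difference of 2.61 or 6.12-fold. It was 2.48 between the arrays numbered 1 and 2.75 between those numbered 2, and it stayed between 2.37 and 2.86 when single arrays were left out. Both WT values lay below the median level of the array (5.87). Without detection calls it is unknown whether they stood above background, which limits the meaning of the fold.

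The other 2 Scd2 probe sets did not share this difference. Probe set 1415822_at was at 11.22 and 11.31 in KO cells, against 11.53 and 11.30 in WT cells. The KO values were even, WT 1 was the highest, and the groups overlapped, with a difference of -0.15. WT 1 was also the array with the highest fibroblast markers, while KO 1, with the next highest mean of them, had the lowest value here. The part of fibroblasts in this value was not tested. Probe set 1415823_at was at 7.41 and 8.31 in KO cells, against 7.75 and 8.21 in WT cells. Here KO 1 was lowest and KO 2 highest, so that the 2 KO arrays enclosed both WT arrays, and the difference was -0.12. The platform annotation lists all 3 under the same source sequence. The range of KO minus WT among them was 2.76. Of the array, 0.0289% of probe sets were at least 4-fold apart, and 1 of the 30 was.

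**Figure D1:**
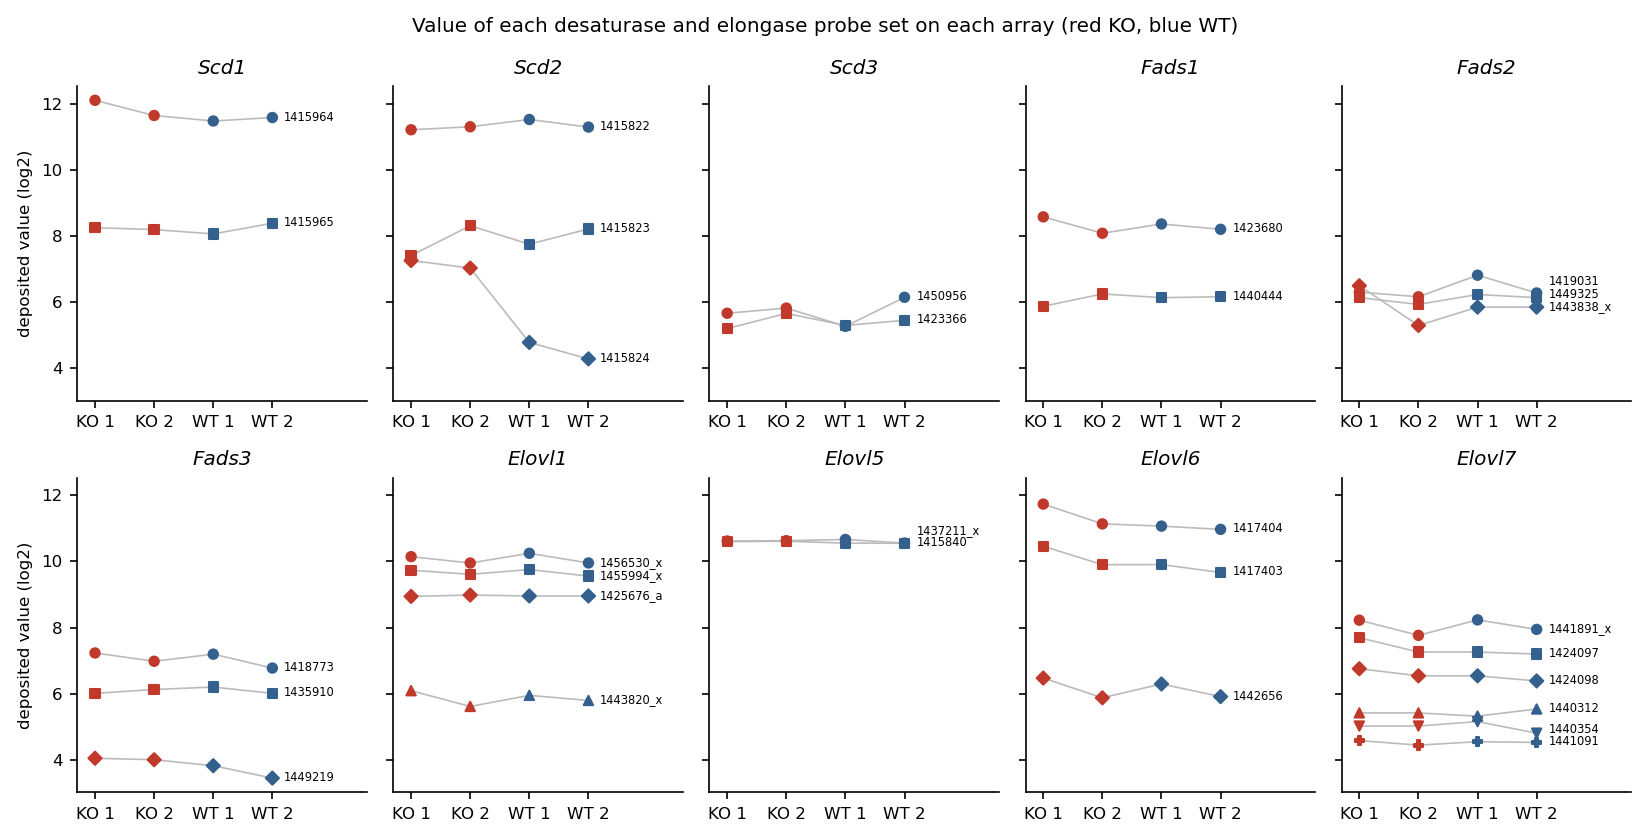
Deposited log2 value (vertical axis) of each of the 30 probe sets on each array, one panel per gene, with KO arrays in red to the left of WT arrays in blue; grey lines join the 4 values of a probe set and are labelled with its number. Scd2 1415824_at stands at 7.26 and 7.03 in KO and 4.78 and 4.28 in WT cells. The other probe sets run nearly level, differ on single arrays or differ between the arrays numbered 1 and 2.

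Such a spread was rare on the array. Scd2 was chosen with the disagreement among its probe sets in view, so its ranks below describe that choice and are not evidence. Among 9010 genes with at least 2 probe sets, the median range of KO minus WT within a gene was 0.14 and the 95th percentile was 0.42. The range of Scd2 was the largest but 2, after Eif2s3y (6.24) and Kdm5d (4.29), both Y-linked. It was followed by Uty (2.70), also Y-linked, by Slc15a2 (2.69), a peptide transporter gene, and by Xist (2.57). Only these 6 genes had a range of at least 2. Of 3788 sets of probe sets that share a gene and a source sequence, that of Scd2 had the largest range, against a median of 0.09. The other desaturase and elongase genes lay between 0.02 for Scd3 and 0.43 for Fads3, and 7 of the 10 genes had probe sets of both signs, as had 53.7% of the 9010 genes.

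**Figure D2:**
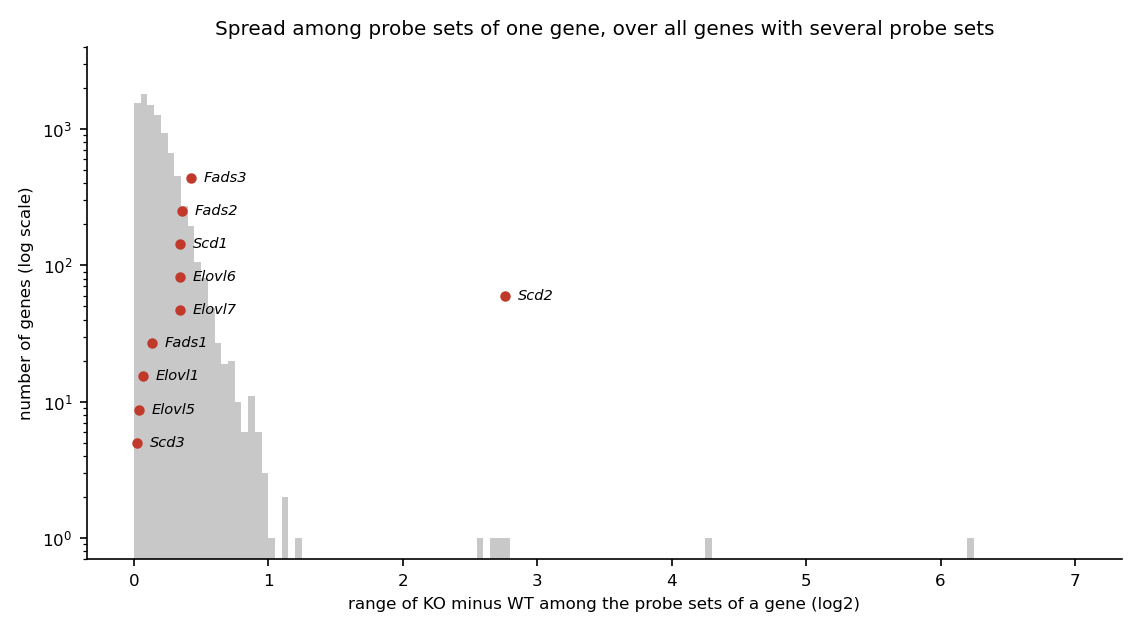
Histogram of the range of KO minus WT (log2, horizontal axis) among the probe sets of a gene, for 9010 genes with at least 2 probe sets; the vertical axis counts genes on a log scale. Red points mark the 10 desaturase and elongase genes at their range, and their height has no meaning; Scd2 lies at 2.76 and the others at 0.43 or less.

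By size, 10 probe sets of the array differed more than Scd2 1415824_at, namely 3 of Xist, 3 of the Y-linked Eif2s3y, Kdm5d and Uty, and 4 without exactly 1 gene symbol here. Whether those 4 had several symbols or none was not separated. Among probe sets with 1 gene symbol, the 5 nearest to Scd2 1415824_at by the distance between profiles centred on their own mean over the 4 arrays were 3 of Uty, 1 of Slc15a2 and 1 of Krt1. Probe sets with several symbols or none were not searched. The distance is small for any probe set with a gap of similar size between KO and WT. Uty 1457582_at was the nearest of the 5 (distance 0.92), at 4.91 and 4.49 in KO cells against 2.72 and 2.95 in WT cells. Slc15a2 1417600_at (1.14) was at 9.88 and 9.86 in KO cells against 8.71 and 6.75 in WT cells. Krt1 1422481_at (1.37), a suprabasal keratin of the epidermis, was at 11.37 and 11.31 in KO cells against 10.32 and 9.86 in WT cells.

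Scd1, the main isoform of sebaceous glands and adipose tissue, lies near Scd2 in a cluster of Scd genes on mouse chromosome 19, with Scd4 between them. Its probe set 1415964_at was at 12.11 and 11.65 in KO cells, against 11.48 and 11.59 in WT cells. Both KO values were above both WT values, but KO 2 exceeded WT 2 by only 0.06 while KO 1 exceeded WT 1 by 0.63, and the KO mean of 11.88 ± 0.32 compares with 11.53 ± 0.07 for WT (SD, n = 2 each). The second Scd1 probe set, 1415965_at, listed under the same source sequence, was at 8.25 and 8.20 in KO and 8.06 and 8.39 in WT cells. Here the KO arrays fell between the WT arrays and the means did not separate, with a difference of -0.0015.

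Scd3, which in mice acts mainly on palmitate and is found in sebocytes, had 2 probe sets below the median level of the array. Probe set 1450956_at was at 5.66 and 5.82 in KO cells, against 5.27 and 6.15 in WT cells, a difference of 0.03. The WT arrays were the lowest and the highest of the 4. The list mean of sebaceous gland markers, 9 of 12 of which had a probe set of their own, followed the same order of arrays. It was 9.20 and 9.31 in KO and 8.99 and 9.34 in WT cells. Of the single markers, Elovl3 and Cidea had that order, while Mc5r, Apoc1, Far2, Acsbg1, Plin5, Mgst1 and Krt79 did not. The part of sebaceous cells in the Scd3 values was not tested. Probe set 1423366_at was at 5.20 and 5.66 in KO cells, against 5.30 and 5.45 in WT cells, a difference of 0.06 with overlapping groups. Of the 3 Scd paralogs no probe set other than Scd2 1415824_at differed by more than 0.34.

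The Fads genes form a second cluster on the same chromosome and encode enzymes with a fused cytochrome b5 domain. Their 8 probe sets were evenly divided, 4 higher and 4 lower in KO cells, with differences from -0.31 to 0.39. Fads1 introduces the last double bond of arachidonic acid. Its brighter probe set 1423680_at was at 8.58 and 8.08 in KO cells, against 8.37 and 8.20 in WT cells. KO 1 was the highest and KO 2 the lowest array, and the difference was 0.05. Probe set 1440444_at showed the reverse among the KO arrays, at 5.88 and 6.25, against 6.14 and 6.16 in WT cells, a difference of -0.09.

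Fads2, which catalyses the first desaturation of linoleic acid and also makes sapienate in human sebum, was lower on average in the KO arrays in 2 of 3 probe sets. Probe set 1419031_at was at 6.30 and 6.16 in KO cells, against 6.82 and 6.28 in WT cells. Its difference of -0.31 rested mainly on WT 1, again the array with the highest fibroblast markers, and KO 1 was above WT 2. Probe set 1449325_at, from the same source sequence, was at 6.14 and 5.93 in KO cells, against 6.23 and 6.14 in WT cells, a difference of -0.15. Values of KO 1 and WT 2 were equal. Probe set 1443838_x_at was at 6.50 and 5.30 in KO cells and at 5.85 on both WT arrays. Its KO arrays, 1.20 apart, were the most unlike of any of the 30 probe sets, so its difference of 0.05 is the mean of a higher and a lower value.

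Fads3 acts on sphingoid bases in mammals. Its probe set 1449219_at, the dimmest of the 30, was at 4.046 and 4.001 in KO cells, against 3.820 and 3.445 in WT cells. Both KO values were higher than both WT values, averaging 4.02 ± 0.03 in KO cells against 3.63 ± 0.27 for WT (SD, n = 2 each), a difference of 0.39. Probe set 1418773_at, from the same source sequence, was at 7.23 and 6.98 in KO cells, against 7.19 and 6.77 in WT cells, a difference of 0.12 with overlapping groups. Probe set 1435910_at was at 6.01 and 6.13 in KO cells, against 6.20 and 6.01 in WT cells, a difference of -0.04. The 3 did not share a direction.

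Among the elongases, Elovl6, which extends palmitate to stearate and so supplies the Scd enzymes, had the largest differences. Probe set 1417404_at was at 11.73 and 11.14 in KO cells, against 11.07 and 10.97 in WT cells. Probe set 1417403_at was at 10.46 and 9.90 in KO cells, against 9.90 and 9.67 in WT cells. In both, KO 1 stood above the other 3 arrays and WT 2 was lowest, and in the second KO 2 lay just below WT 1. The differences were 0.42 and 0.40, and the range of 0.02 between them compares with 2.76 for Scd2. Probe set 1417404_at averaged 11.44 ± 0.42 in KO cells and 11.02 ± 0.07 for WT (SD, n = 2 each), so that the KO arrays were further from each other than the groups were. The third Elovl6 probe set, 1442656_at, was at 6.47 and 5.87 in KO cells, against 6.29 and 5.91 in WT cells, a difference of 0.07 in which both number 1 arrays were above both number 2 arrays.

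Elovl7, an elongase of saturated and very long chain acyl groups, had 6 probe sets. The pair from one source sequence went the same way as Elovl6. Probe set 1424097_at was at 7.69 and 7.26 in KO cells, against 7.26 and 7.20 in WT cells, a difference of 0.25. Probe set 1424098_at was at 6.75 and 6.54 in KO cells, against 6.54 and 6.38 in WT cells, a difference of 0.18. KO 1 was highest and WT 2 lowest in both, and KO 2 and WT 1 had the same value to every deposited digit. The brightest one, 1441891_x_at, was at 8.22 and 7.76 in KO cells, against 8.23 and 7.94 in WT cells, a difference of -0.09 with the number 1 arrays higher. An x in the name marks probes that can also match other transcripts. The 3 remaining Elovl7 probe sets, 1440312_at, 1440354_at and 1441091_at, lay below the median level of the array, between 4.44 and 5.54, and differed by -0.02 to 0.04.

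Elovl1 and Elovl5 were the most even genes of the family. Elovl1 makes the very long saturated chains of sphingolipids and is needed for the skin barrier of newborn mice. Its probe set 1456530_x_at was at 10.14 and 9.95 in KO cells, against 10.25 and 9.95 in WT cells. The number 1 arrays were the higher ones in both groups, and the same held for 1455994_x_at, at 9.74 and 9.61 in KO and 9.75 and 9.56 in WT cells. The probe set not marked x, 1425676_a_at, was at 8.94 and 8.98 in KO cells and at 8.96 on both WT arrays. The dimmest, 1443820_x_at, was at 6.09 and 5.61 in KO cells, against 5.95 and 5.79 in WT cells, with the KO arrays enclosing the WT arrays. The 4 Elovl1 differences ran from -0.05 to 0.02. Elovl5, which elongates polyunsaturated chains, was at 10.60 and 10.61 in KO cells, against 10.56 and 10.55 in WT cells, with 1415840_at. Those KO values were both above the WT values by a margin of 0.05 on average, while 1437211_x_at was at 10.62 and 10.63 in KO and 10.66 and 10.56 in WT cells.

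**Figure D3:**
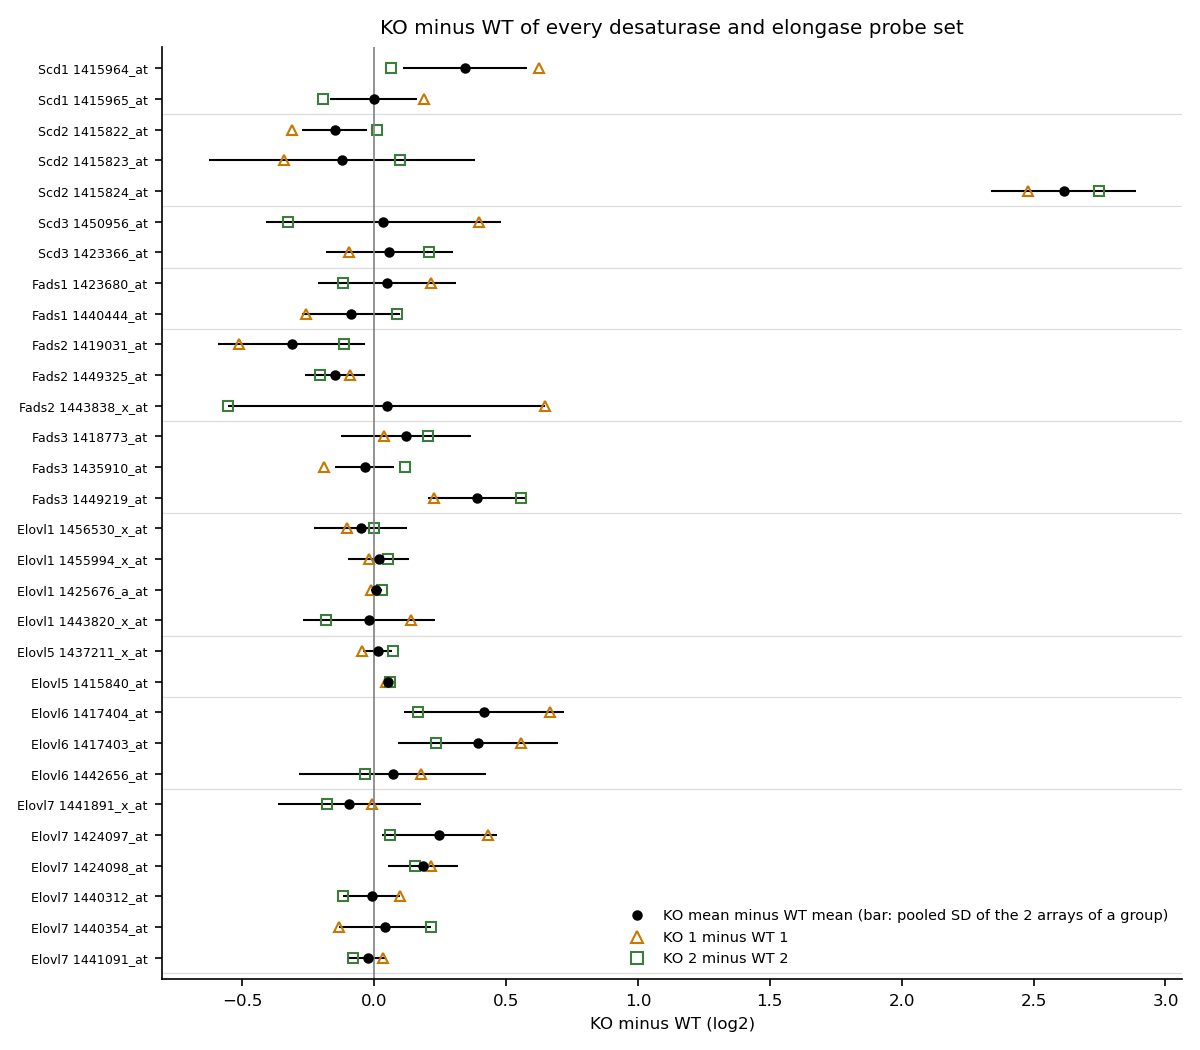
KO minus WT on the log2 scale (horizontal axis) for each of the 30 probe sets (rows, grouped by gene): black points are KO mean minus WT mean with a bar of 1 pooled SD of the 2 arrays of a group, triangles KO 1 minus WT 1 and squares KO 2 minus WT 2. Scd2 1415824_at stands alone at 2.61, and all others lie between -0.31 and 0.42.

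Over the 30 probe sets, both KO arrays were above both WT arrays in 5, namely 1 each of Scd1, Scd2, Fads3, Elovl5 and Elovl6, and below them in 0. Over the array the same held for 6.94% above and 6.33% below. The sign of the difference was opposite between the number 1 and the number 2 arrays in 17 of the 30 (56.7%), against 34.0% of the array. A difference of exactly 0 has no sign and was not counted, and equal values were commoner over the array, so the shares are not fully alike. KO 1 was the highest array in 13 of the 30 and WT 2 the lowest in 11, against 14052 and 8504 of the 45037 probe sets. Equal values were credited to the first array in the order KO 1, KO 2, WT 1, WT 2. At least 2 arrays had exactly equal values in 8 of the 30 (26.7%), against 47.1% over the array.

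The start regions of Elovl6 and Elovl7 are shown from RefSeq (GRCm38.p6, plus strand, 250 bases before to 50 bases after the start), Elovl6 at chr3:129532136-129532435 and Elovl7 at chr13:108214154-108214453. Each gene had a pair of probe sets from one source sequence that was highest on KO 1 and lowest on WT 2. The Fads3 pair from one source sequence, 1418773_at and 1449219_at, had the same highest and lowest arrays, but the start region of Fads3 is not shown. Capitals mark any match, on either strand, to CCAAT (read by NF-Y), GGGCGG (the GC box read by SP1), TCACNCCAC (a sterol response element of the kind read by SREBP) or CACGTG (an E-box).
Elovl6: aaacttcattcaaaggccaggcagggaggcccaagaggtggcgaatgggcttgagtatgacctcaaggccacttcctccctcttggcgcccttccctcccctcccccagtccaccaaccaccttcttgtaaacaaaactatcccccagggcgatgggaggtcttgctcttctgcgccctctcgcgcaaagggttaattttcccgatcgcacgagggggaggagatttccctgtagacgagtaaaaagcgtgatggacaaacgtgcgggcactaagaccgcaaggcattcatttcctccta
Elovl7: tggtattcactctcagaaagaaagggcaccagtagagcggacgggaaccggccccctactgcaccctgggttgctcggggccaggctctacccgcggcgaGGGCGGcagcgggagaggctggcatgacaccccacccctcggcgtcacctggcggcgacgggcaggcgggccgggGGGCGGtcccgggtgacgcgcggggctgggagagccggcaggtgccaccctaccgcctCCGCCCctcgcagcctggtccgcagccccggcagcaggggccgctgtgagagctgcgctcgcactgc

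The Elovl6 window held no match, and that of Elovl7 held GGGCGG at positions -150 and -75 and, on the reverse strand, at -17, counted from the start site. The Fads3 window held CCAAT at -106 and, on the reverse strand, at -78. It held GGGCGG at -34 and, on the reverse strand, at -123. Among all 32851 windows of this length, CCAAT occurred in 37.4%, GGGCGG in 35.7%, TCACNCCAC in 1.24% and CACGTG in 7.15%. Among the 8 windows that the RefSeq table gave for the 10 genes, they occurred in 3, 5, 0 and 1. The windows were those of Elovl1 (2 starts), Elovl5, Elovl6, Elovl7, Fads2, Fads3 and Scd3. These are matches of letters and not binding sites.

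The enzymes that act beside the desaturases and elongases were compared by each gene's probe set of highest mean. No gene in any of these lists passed (limma adjusted p of 0.05, against 0 of 18193 genes, or 0%). At an unadjusted p under 0.05 it was 363 genes, or 2%. The median gene differed by 0.01. Of 6 other desaturases and elongases, 2 were higher and 3 lower in KO cells, with a median of 0.00. Elovl3, an elongase of sebaceous and brown fat lipids, was at 8.52 and 9.37 in KO cells, against 7.61 and 9.38 in WT cells. That order of arrays was the one of the list mean of the sebaceous markers, to which it belongs. Elovl4, which makes the ultra long chains of the skin barrier, was at 8.10 and 8.27 in KO and 8.11 and 8.46 in WT cells.

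The partner enzymes of the elongation cycle had a median of -0.02 over 6 genes. Hacd1, a dehydratase of the third step, was at 9.48 and 9.27 in KO cells, against 9.86 and 9.60 in WT cells. Both KO values were below both WT values, with a difference of -0.35 (SE 0.14, limma adjusted p = 0.996) and of -0.45 in its second probe set. The ketoacyl reductase Hsd17b12 differed by -0.08 (SE 0.12) and the enoyl reductase Tecr by 0.08 (SE 0.12). The cytochrome b5 system, which hands electrons to the desaturases, had a median of 0.04 over 6 genes. Cyb5b, its mitochondrial form, differed by 0.10 (SE 0.06).

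Regulators of the pathway had a median of -0.01 over 14 genes. Nr1h3, the receptor LXR alpha, differed by -0.19 (SE 0.14), Insig1, which holds SREBP in the endoplasmic reticulum, by -0.15 (SE 0.15), Ppard by 0.07 (SE 0.06) and Rxra by 0.03 (SE 0.04). Srebf1, the regulator of fatty acid synthesis genes, was picked with its values known and stood at 10.18 and 9.72 in KO cells and 10.09 and 9.76 in WT cells. Both number 1 arrays were the higher ones. Fatty acid synthesis and activation genes had a median of 0.06 over 12 genes, 8 of them higher in KO cells. The acyl-CoA synthetase Acsl5 was at 10.94 and 10.71 in KO cells, against 10.71 and 10.71 in WT cells. KO 1 was above the other 3 arrays, as in Scd1 1415964_at and in Elovl6. Fasn, the fatty acid synthase that makes palmitate, likewise picked with its values known, stood at 9.51 and 9.51 in KO and 9.47 and 9.53 in WT cells.

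Cholesterol synthesis genes had a median of 0.08 over 16 genes, of which 15 were higher in KO cells, none past the threshold and 0 at an unadjusted p under 0.05. Over all genes so represented, 9631 of 18193 were higher. The count depends on the probe set taken. Of the genes counted as higher, Hmgcs1, Idi1, Msmo1, Sc5d, Mvk, Fdft1, Fdps and Hsd17b7 also had a probe set lower in KO cells, by up to -0.17 in Sc5d. The squalene epoxidase Sqle was at 9.62 and 9.99 in KO cells, against 9.50 and 9.63 in WT cells. The lanosterol synthase Lss was at 8.84 and 8.84 in KO cells, against 8.56 and 8.73 in WT cells, a difference of 0.20 (SE 0.08). Nsdhl, a sterol demethylating enzyme, differed by 0.22 (SE 0.16). KO 2 was the array with the highest mean of this list (9.43 and 9.58 in KO, 9.33 and 9.48 in WT cells), while KO 1 was the highest array for Scd1 1415964_at and for all 3 probe sets of Elovl6.

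Genes that use the products had list medians slightly above the 0.01 of the median gene. Storage of triglyceride and cholesteryl esters had a median of 0.06 over 10 genes, with the acyltransferase Agpat2 at 0.20 (SE 0.12) and the lipase Pnpla2 at 0.07 (SE 0.04). Ceramide and barrier lipid genes had a median of 0.07 over 16 genes. Both KO values were above both WT values in 4 of them and below in 0, against 1491 and 1037 of all 18193 genes. Cers2, a ceramide synthase for very long chains, was at 9.10 and 8.84 in KO cells, against 8.73 and 8.60 in WT cells, a difference of 0.31 (SE 0.13). Pnpla1, which makes the acylceramides of the barrier, differed by 0.19 (SE 0.05) and was the 1 member with an unadjusted p under 0.05, while Sptlc3 differed by -0.22 (SE 0.13).

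Markers of differentiated epidermis had a median difference of 0.23 over 10 genes, 9 of them higher in KO cells, and list means of 9.21 and 9.17 in KO against 9.03 and 8.63 in WT cells. Over all genes so represented, 9631 of 18193 were higher. Lor, counted as higher, also had a probe set lower in KO cells (-0.14). Krt10 was at 12.22 and 12.21 in KO cells, against 11.75 and 11.06 in WT cells. None passed the adjusted threshold. The part of these cells in the Scd2 value was not tested. Adipocyte markers, another source of Scd RNA, had means of 5.42 and 5.40 in KO and 5.53 and 5.31 in WT cells, with 3 of 10 genes above the median level and a median difference of 0.01. The defining adipocyte gene Adipoq was at 3.47 and 3.76 in KO and 3.60 and 3.60 in WT cells.

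**Figure D4:**
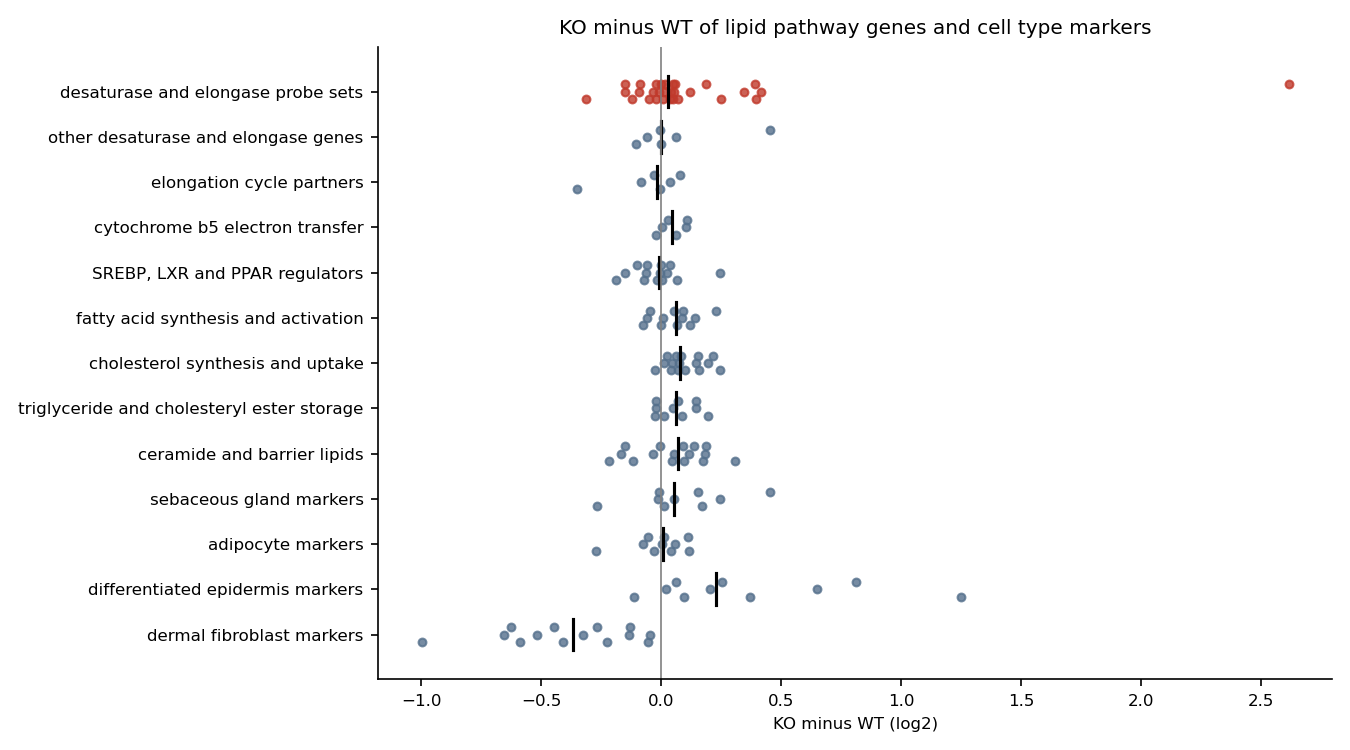
KO minus WT on the log2 scale (horizontal axis) of the 30 desaturase and elongase probe sets (red) and of the genes of each list by their probe set of highest mean (blue), with black bars at the medians. Lipid lists centre between -0.02 and 0.08, differentiated epidermis markers on 0.23 and dermal fibroblast markers on -0.37.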

How the data were processed

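Expression was measured on 4 one-colour Affymetrix arrays, 2 of KO and 2 of WT cells. The deposited table holds log2 values per probe set that the authors made with RMA, per the submitters' processing notes; the sources used here give no version, genome build or detection calls. Without those calls, whether a dim probe set lies above background is unknown. The number of arrays limits the precision.

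Groups and numbers came from the sample titles. Symbols came from GEO's platform annotation, updated by gene identifier through the GRCm38.p6 RefSeq table (34754 of 34945 probe sets with 1 symbol matched; 932 had several, 9160 none here). The 64 Affymetrix controls were left out, and KO was compared with WT over the other 45037 probe sets with limma 3.58.1 in R 4.3.3 (lmFit, eBayes, two-sided, no covariate, Benjamini-Hochberg adjustment over all, threshold 0.05). The fit was tested on simulated data. List genes were represented by their probe set of highest mean. Differences are log2 KO mean less WT mean, and SEs are limma's moderated ones. The genes and lists were chosen with earlier results of these data known.

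All probe sets of the 10 genes are named. Of each list the rule takes up to 4 genes of smallest p, and it takes the 5 probe sets with 1 symbol nearest in profile to the Scd2 probe set of largest difference; any other gene is marked or serves as a marker. Alternatives were quantile normalization again, median centring, a filter on dim probe sets, other eBayes settings, a replicate block, 1 value per gene, and leaving out each array.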

Additional observations from a re-analysis of the deposited data

How the results depend on the processing

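The difference of Scd2 1415824_at stayed between 2.37 and 2.86 without single arrays and at 2.61 or 2.62 with quantile normalization again, median centring, eBayes with trend and robust, or a block. The filter on dim probe sets removed it, its mean being just below the median level. Reduced to 1 value per gene the difference depended on the choice: -0.15 with the Scd2 probe set of highest mean and 0.78 with the mean of all 3. Calls over the array were 6 with quantile normalization again, 4 with median centring, 4 with the filter on dim probe sets and 2 with 1 probe set per gene, against 0 otherwise; the cause was not tested, and none was a probe set of the 10 genes, and under the first 3 of these settings none was a listed lipid gene. Of the 30 probe sets, those at least 1.5-fold apart numbered 0 with the dim filter and 1 to 4 without single arrays, and those at an unadjusted p under 0.05 numbered 0 with the dim filter and 2 to 6 without single arrays (6 without KO 2), where a lone array is assumed to vary like the other group. With the replicate number as a block, 2 of the 30 had an unadjusted p under 0.05 and no call was made. Arrays of one number deviated together (r = 0.57 across 45037 probe sets), but the labels do not say that the numbers pair the samples. Leaving out 1 array turned the sign in 6 to 9 of the 30, whose differences with all arrays were at most 0.12 in size.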

Other observations

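Slc15a2 was the other gene with 1 probe set at least 4-fold apart and another of the opposite sign, and with Scd2 it made 2 such genes on the array. Its 3 probe sets differed by -0.55 to 2.14. In gene order on chromosome 19, the 10 genes other than Scd1 and Scd3 that were measured among the 8 before and the 8 after Scd2 differed by -0.08 to 0.13. Of them Bloc1s2, a subunit of a lysosome biogenesis complex, was at 9.41 and 9.36 in KO and 9.34 and 9.34 in WT cells, and Ndufb8, a subunit of respiratory complex I, at 11.22 and 11.28 in KO and 11.35 and 11.30 in WT cells. These genes were chosen for their place after the Scd2 values were seen.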
